A study of Arabidopsis thaliana with 15 samples.

Results

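Gibberellins are growth hormones, and the transcripts of 10 Arabidopsis genes that make them, inactivate them, perceive them or repress their responses were followed through high light (HL) and the subsequent recovery (R). The genes were chosen by name: GA20OX1, GA20OX2 and GA3OX1 for synthesis, GA2OX2, GA2OX6 and GA2OX8 for inactivation, RGA, GAI and RGL3 for DELLA repressors, and GID1A for a receptor. Of these, 9 are among the 21593 genes of the deposited table, and all 9 passed the filter on low values that left 20512 genes for testing. The transcript level of GA20OX2 was not analysed here, and only the sequence before this gene was searched. RNA was taken from leaves of the wild-type ecotype Col-0, the genotype of all libraries, aged 6 to 7 weeks and kept on short days of 8 h light. Growth light (GL) had an intensity of 100 and HL one of 1000 μmol photons per square meter and second. The 5 conditions, with 3 libraries each, were GL before any HL, HL lasting 15 min (HL15), HL lasting 60 min (HL60), and a return to growth light after the full 60 min of HL, lasting 15 min (R15) or 60 min (R60). There was no GL group taken at the clock time of each treatment, so light and time of day cannot be told apart in a comparison with GL. In bulk leaf RNA, fewer cells of a type and less RNA per cell cannot be told apart either.

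Active gibberellin is made from the diterpene ent-kaurene, with the GA 20-oxidases (GA20OX) and GA 3-oxidases (GA3OX) as the last enzymes, and is removed by the GA 2-oxidases (GA2OX). The hormone binds the soluble receptor GID1, and the complex captures DELLA proteins, nuclear repressors of growth, and sends them to degradation. In the feedback known for this pathway, DELLA activity raises the transcripts of synthesis and receptor genes, and gibberellin raises those of GA2OX genes.

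The genes lie on chromosomes 1 to 5 of TAIR10.1, and all are annotated as protein coding. GA3OX1 (AT1G15550) spans chr1:5344388-5346342 and GA20OX1 (AT4G25420) chr4:12990851-12992585. The inactivation genes are GA2OX2 (AT1G30040) at chr1:10537457-10540044, GA2OX6 (AT1G02400) at chr1:486800-489651 and GA2OX8 (AT4G21200) at chr4:11302682-11306770. The DELLA genes are RGA (AT2G01570) at chr2:255247-257568, GAI (AT1G14920) at chr1:5148982-5151415 and RGL3 (AT5G17490) at chr5:5763989-5766246, and GID1A (AT3G05120) spans chr3:1430363-1432844. No stretch of 31 bases of the transcripts of 8 of the 9 measured genes occurred in a transcript of another gene, and for GID1A 0.265% of such stretches did, shared with its paralog GID1C.

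The 250 bases before the annotated start are printed for 4 genes, 1 of each role, because their transcripts moved most within that role or, for GID1A, alone represent it. They are TAIR10.1 sequences read in the direction of the gene, at chr1:5346343-5346592 (GA3OX1, minus strand), chr1:10537207-10537456 (GA2OX2, plus strand), chr5:5766247-5766496 (RGL3, minus strand) and chr3:1430113-1430362 (GID1A, plus strand). Capitals mark TAACAAA, an element known from gibberellin-responsive promoters, and CGCG, a core known to be bound by calmodulin-binding transcription factors, on either strand.
GA3OX1: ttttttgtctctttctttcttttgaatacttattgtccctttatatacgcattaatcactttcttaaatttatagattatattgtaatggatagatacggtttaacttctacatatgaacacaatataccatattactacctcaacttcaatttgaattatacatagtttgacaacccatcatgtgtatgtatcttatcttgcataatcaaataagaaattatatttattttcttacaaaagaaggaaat
GA2OX2: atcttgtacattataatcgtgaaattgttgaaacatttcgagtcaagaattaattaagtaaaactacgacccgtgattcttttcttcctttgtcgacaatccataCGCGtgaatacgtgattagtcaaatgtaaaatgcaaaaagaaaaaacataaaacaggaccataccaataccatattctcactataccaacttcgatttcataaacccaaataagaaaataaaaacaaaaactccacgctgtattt
RGL3: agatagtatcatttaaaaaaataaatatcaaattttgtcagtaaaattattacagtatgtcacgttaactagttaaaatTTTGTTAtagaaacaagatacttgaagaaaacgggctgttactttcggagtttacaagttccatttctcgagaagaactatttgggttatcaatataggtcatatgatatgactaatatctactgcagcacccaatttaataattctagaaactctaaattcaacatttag
GID1A: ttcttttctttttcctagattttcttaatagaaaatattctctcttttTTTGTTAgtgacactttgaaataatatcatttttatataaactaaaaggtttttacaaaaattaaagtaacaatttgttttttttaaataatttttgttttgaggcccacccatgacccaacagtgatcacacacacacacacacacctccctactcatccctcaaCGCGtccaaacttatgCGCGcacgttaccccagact
TAACAAA occurred once before RGL3, with its outer end 171 bases ahead of the start, and once before GID1A, at 202 bases, and CGCG once before GA2OX2, at 145 bases, and at 36 and 20 bases before GID1A. Among 21389 windows of the same length, 16% held TAACAAA and 10.9% held CGCG. Over the 10 genes, TAACAAA was also found before GA2OX8 and CGCG before GA2OX6. The G-box CACGTG, the W-box TTGACC, the as-1 core TGACG and the heat shock element core GAANNTTC were searched on both strands and matched in none of the 10 windows, against 7.3%, 12.1%, 19.2% and 9.52% of all windows. The GCC box GCCGCC, held by 1.98% of the windows, was found before GA2OX8, and the evening element AAAATATCT, held by 2.51%, before GAI. A match describes these letters and not a bound factor.

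Totals of normalized counts per library lay between 16003876 and 20619828, and 1 read was worth 0.678 to 1.24 normalized counts, so that the lowest values rest on few reads. Leaf genes were abundant in every library (RBCS1A, a subunit of Rubisco, at 202681 to 348434) and the seed storage gene CRA1 was at 0 to 0.798. Of the genes listed beforehand as root genes expected near 0 in leaf, PYK10 was at 0 to 10.7. SCR was at 293 to 906 over all libraries, so it did not serve as a root marker here. HL60 replicate 1 stood further from the other replicates of its condition than any other library, with a root mean square difference of 0.860 on the log2 scale, against 0.445 to 0.683 for the other libraries. The labels number the replicates 1 to 3, and the study calls them biological. An exact permutation test of 3 against 3 libraries cannot give a two-sided p under 0.1, so the p-values below are those of limma, fitted across all genes tested and adjusted by Benjamini-Hochberg. A gene was called at an adjusted p under 0.05, and fold changes refer to log2 of the normalized count plus 1, a scale that understates changes of low genes.

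More of the genes were called at HL60, R15 and R60 than at HL15, and so were more of all genes. At HL15, 1 of the 9 was higher and 3 were lower than in GL, where 11.4% of all genes tested were called higher and 13.2% lower. At HL60, 4 were higher and 3 lower, against 19.4% of all genes in each direction. At R15, 5 were higher and 3 lower, against 22.9% in each direction, and at R60 5 were higher and 2 lower, against 21.4% and 22.1%. With a change of 2-fold or more as a further condition, 2, 5, 6 and 6 of the genes were called at HL15, HL60, R15 and R60, against 9.45%, 15.6%, 19.8% and 19.3% of all genes. Median log2 fold changes of the 9 genes against GL were 0.083 (HL15), 1.41 (HL60), 2.08 (R15) and 2.74 (R60), while that of all genes lay between -0.026 and 0.0085. GA2OX8 had no fold at HL15, and without it the median there was 0.026. The median over all 9 is the value of 1 gene, RGA at HL15 and GID1A at HL60, R15 and R60. It describes no shared rise of the 9 genes. These comparisons share the GL libraries. The genes were chosen with earlier results of these data known, so a count above the share of all genes is no independent evidence.

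**Figure D1:**
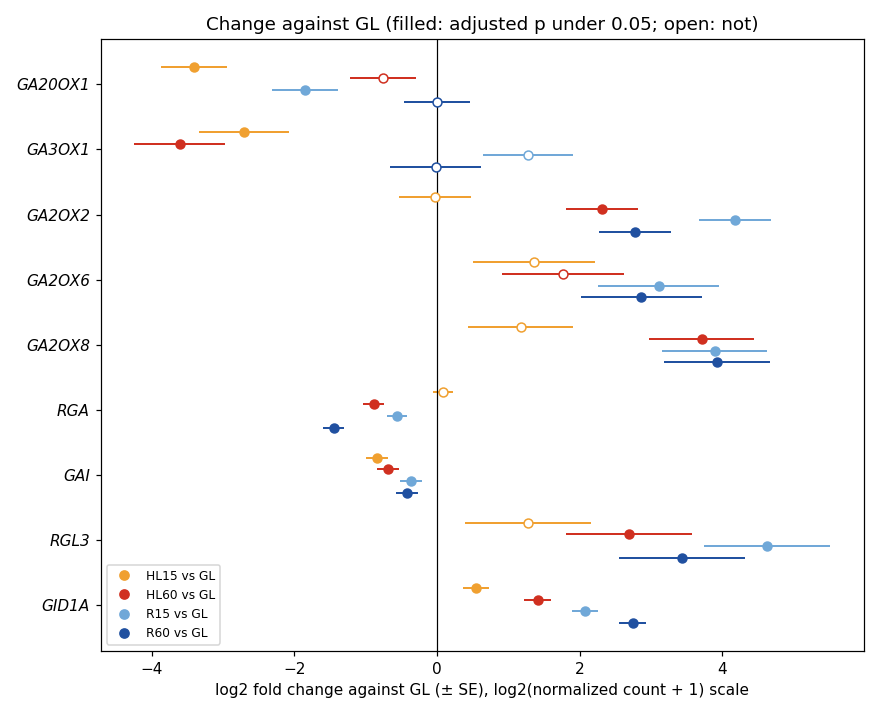
Log2 fold change against GL on the scale of log2(normalized count + 1), with its standard error as a line, for the 9 measured genes in HL15, HL60, R15 and R60 (n = 3 libraries per condition); filled points have an adjusted p under 0.05. GA20OX1 and GA3OX1 lie left of 0 in HL, the GA2OX genes, RGL3 and GID1A lie right of 0 in R, and RGA reaches -1.45 at R60.

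Both synthesis genes fell within 15 min of HL, and both overlapped GL at R60. GA20OX1 encodes the oxidase that makes the precursors of active gibberellin. It had 93.5, 93.7 and 60.5 normalized counts in GL, 3.74, 7.48 and 10.4 at HL15, 46.7, 60.4 and 38.1 at HL60, 48.3, 16.1 and 12.9 at R15, and 53.7, 101 and 97.7 in R60. All HL15 libraries were thus far below all GL libraries, and the mean was 11.5-fold lower (log2 fold change -3.41, standard error 0.45, adjusted p = 0.000101). GA20OX1 was then higher at HL60 than at HL15 (2.66, adjusted p = 0.000418), and its difference of -0.75 between HL60 and GL did not pass (adjusted p = 0.205). The HL60 libraries still lay below those of GL, though narrowly, with 60.4 the highest at HL60 and 60.5 the lowest in GL. At R15 GA20OX1 was 3.20-fold lower than in GL (-1.85, adjusted p = 0.00359). The step from HL60 to R15 did not pass (-1.09, adjusted p = 0.0954), but did without R15 replicate 1, the highest of that condition (-1.65, adjusted p = 0.00830). From R15 to R60 the gene rose by 1.85 (adjusted p = 0.00440), and the R60 libraries overlapped those of GL, with means of 84.1 ± 26.4 at R60 and 82.6 ± 19.1 in GL (SD, n = 3 each). The order of its means was HL15, R15, HL60, GL and R60, and R15 overlapped HL60, HL60 did not pass against GL, and GL overlapped R60.

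GA3OX1, which encodes the enzyme of the last step to active gibberellin, was low in both HL conditions and highest at R15. Its values were 76.5, 58.8 and 59.4 normalized counts in GL, 23.9, 6.10 and 4.71 at HL15, 12.9, 4.38 and 1.06 at HL60, 168, 114 and 203 at R15, and 42.8, 101 and 58.9 in R60. All 6 HL libraries were below all GL libraries, and all 3 R15 libraries were above them. Means were 5.62-fold lower at HL15 and 10.6-fold lower at HL60 than in GL (-2.71 and -3.61, adjusted p = 0.00591 and 0.000349). After 15 min back in growth light GA3OX1 was 26.5-fold higher than at HL60 (4.89 on the log2 scale, with a standard error of 0.62 and an adjusted p of 5.60e-05). Its level at R15, 2.49 times that in GL, did not pass against GL (1.28, adjusted p = 0.108), although the libraries did not overlap. It passed with a pseudocount of 5 (1.23, adjusted p = 0.0352) and with only R15 and GL in the fit (adjusted p = 0.00301). R60 and GL overlapped, at 67.7 ± 30.3 and 64.9 ± 10.05 (SD, n = 3 each). HL60 and HL15 also overlapped, and their difference of -0.91 (adjusted p = 0.279) passed only without HL60 replicate 1 (-1.59, adjusted p = 0.0350).

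Summed per kb of transcript, GA20OX1 and GA3OX1 together gave 78.2 to 111 normalized counts per kb in GL, 8.85 to 18.1 at HL15, 25.4 to 42.0 at HL60, 85.2 to 142 at R15 and 62.9 to 132 at R60. The mean share of GA3OX1 in this sum was lowest at HL60 and highest at R15. At HL15 the share spread from 31.5% to 86.6%, too widely to be set apart from GL or R15. GA3OX1 held 44.7 ± 5.5% of it in GL, 54.5 ± 28.7% at HL15, 10.5 ± 10.1% at HL60 and 86.6 ± 8.1% at R15, and 44.4 ± 6.3% in R60 (SD, n = 3 each).

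**Figure D2:**
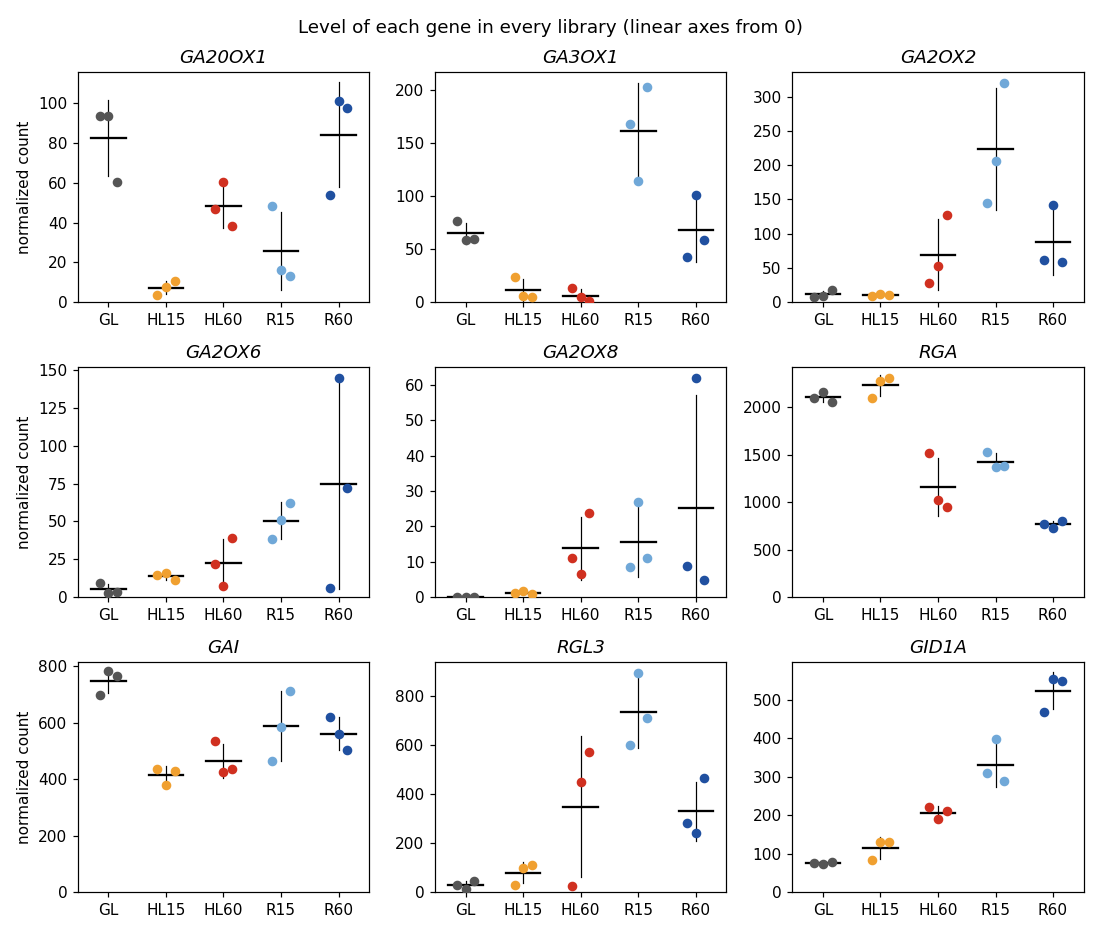
Normalized count (linear axis from 0) of each of the 9 measured genes in every library, by condition along the horizontal axis; points are libraries, horizontal bars means and vertical lines 1 SD, drawn no lower than 0 (n = 3). GA3OX1 is at 1.06 to 12.9 in HL60 and 114 to 203 in R15, and HL60 replicate 1 is the lowest of its condition for RGL3.

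Of the 3 genes for inactivation followed here, GA2OX2 and GA2OX8 were higher than in GL at HL60, R15 and R60, and GA2OX6 at R15 and R60. At HL15 none of the 3 passed with all conditions in the fit, while GA2OX6 and GA2OX8 passed with only HL15 and GL in it (adjusted p = 0.0455 and 0.0324). GA2OX2 encodes a 2-oxidase that acts on active gibberellin and its direct precursors. It was at 7.88, 9.11 and 17.2 normalized counts in GL, 9.08, 11.7 and 11.01 at HL15, 28.4, 52.2 and 128 at HL60, 145, 206 and 321 at R15, and 61.6, 142 and 58.6 in R60. HL15 overlapped GL (-0.030, adjusted p = 0.977), and no library of HL60, R15 or R60 did. Compared with GL the mean was 6.09-fold higher at HL60, 19.6-fold at R15 and 7.65-fold at R60 (2.31, 4.18 and 2.78, adjusted p = 0.00173, 8.43e-06 and 0.000331). GA2OX2 rose further when HL ended, by 1.87 from HL60 to R15 (adjusted p = 0.0123), and was lower again at R60 than at R15 (-1.40, adjusted p = 0.0333). The rise did not pass without R15 replicate 3 (1.57, adjusted p = 0.0649) or with only R15 and HL60 in the fit (adjusted p = 0.0854), and the fall did not pass without R15 replicate 2, R15 replicate 3, R60 replicate 1 or R60 replicate 3 (-1.42 to -1.10, adjusted p = 0.0686 to 0.132).

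GA2OX6, an enzyme of the same kind, was low in growth light. It was at 9.46, 3.00 and 3.77 normalized counts in GL, 14.9, 16.3 and 11.3 at HL15, 21.8, 7.67 and 39.1 at HL60, 38.1, 50.8 and 62.4 at R15, and 6.25, 145 and 72.3 in R60. R15 lay above GL in every library, with a mean 9.32 times as high (3.11, standard error 0.84, adjusted p = 0.00719). HL15 did not overlap GL either, but its difference of 1.36 did not pass (adjusted p = 0.262) except with only HL15 and GL in the fit (adjusted p = 0.0455). The difference of 1.77 at HL60 did not pass (adjusted p = 0.112). The R60 value depended on the library: R60 replicate 1 was within the GL range, and the other R60 libraries held the highest values of all conditions. The log2 fold change at R60 was 2.87 (adjusted p = 0.0125), 4.14 without R60 replicate 1 (adjusted p = 7.24e-05), 1.98 without R60 replicate 2 (adjusted p = 0.0731) and 2.48 without R60 replicate 3 (adjusted p = 0.0541). With only R60 and GL in the fit it did not pass (adjusted p = 0.0584).

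GA2OX8 encodes a 2-oxidase that acts on earlier precursors and was at 0 in all GL libraries. It had 1.29, 1.76 and 0.815 normalized counts at HL15, 10.98, 6.63 and 23.8 at HL60, 8.67, 27.0 and 11.2 at R15, and 8.69, 61.9 and 4.81 in R60. Against a floor of 3 normalized counts per library, its mean was at least 4.60-fold higher at HL60 than in GL, at least 5.20-fold at R15 and at least 8.38-fold at R60 (adjusted p = 0.000962, 0.000506 and 0.000497). These bounds rest largely on the highest library of each condition, and were 2.93-fold without HL60 replicate 3, 3.30-fold without R15 replicate 2 and 2.25-fold without R60 replicate 2, so no order among them can be read. At HL15 both conditions were under the floor. The conditions HL60, R15 and R60 overlapped one another. Its rise from HL15 to HL60 (2.54, adjusted p = 0.0139) did not pass with a pseudocount of 5 (1.48, adjusted p = 0.0523), without HL15 replicate 3 (2.39, adjusted p = 0.0501) or without HL60 replicate 3 (2.08, adjusted p = 0.0659).

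GID1A, the receptor gene, rose at every step. It was at 77.6, 73.8 and 80.1 normalized counts in GL, 83.5, 132 and 131 at HL15, 221, 189 and 212 at HL60, 309, 399 and 288 at R15, and 467, 554 and 550 in R60. In none of the steps did the libraries of neighbouring conditions overlap. The mean was 1.497-fold that of GL at HL15, 2.69-fold at HL60, 4.30-fold at R15 and 6.79-fold at R60, with log2 fold changes of 0.55, 1.41, 2.08 and 2.74 (adjusted p = 0.0318, 1.69e-05, 3.49e-07 and 2.71e-08). Between neighbouring conditions it rose by 0.87 from HL15 to HL60, by 0.67 from HL60 to R15 and by 0.67 from R15 to R60 (adjusted p = 0.00142, 0.0116 and 0.00662). The call at HL15 is the weakest of these. It did not pass with only HL15 and GL in the fit (adjusted p = 0.0782), nor without GL replicate 1, GL replicate 2, GL replicate 3, HL15 replicate 2 or HL15 replicate 3 (0.43 to 0.57, adjusted p = 0.0599 to 0.141). The rise from HL60 to R15 did not pass without R15 replicate 2 (0.53, adjusted p = 0.0592).

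Arabidopsis has a pair of further receptor genes, GID1B and GID1C, and their levels were summed with that of GID1A. Per kb of transcript the sum was 122 to 145 normalized counts in GL, 128 to 172 at HL15, 201 to 248 at HL60, 210 to 295 at R15 and 467 to 517 in R60. GID1C was the main transcript of the family in GL, with 60.1 ± 3.4% of the sum and GID1A with 31.2 ± 3.1%. At R15 GID1A had 69.8 ± 2.6% and GID1C 17.1 ± 1.4%, and at R60 they had 54.8 ± 2.2% and 27.1 ± 2.6% (SD, n = 3 each). GID1C itself fell at R15 and rose in R60 (-0.88 and 0.79 against GL, adjusted p = 0.00196 and 0.00448), and GID1B rose at HL60, R15 and R60 (2.16, 1.46 and 2.93, adjusted p = 0.000153, 0.00250 and 7.15e-06).

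Compared with GL, the DELLA genes differed in opposite directions. RGA, the most abundant DELLA transcript of growth light and a main repressor of stem and leaf growth, was lower from HL60 on. It was at 2099, 2162 and 2054 normalized counts in GL, 2102, 2277 and 2314 at HL15, 1514, 1021 and 953 at HL60, 1529, 1371 and 1381 at R15, and 772, 731 and 806 in R60. HL15 overlapped GL (0.083, adjusted p = 0.699), and all libraries of HL60, R15 and R60 were below all GL libraries. RGA was 1.81-fold lower at HL60 than in GL, 1.47-fold lower at R15 and 2.74-fold lower at R60 (-0.89, -0.56 and -1.45, adjusted p = 0.000101, 0.00287 and 8.05e-07). The decline came in 2 steps, from HL15 to HL60 (-0.97, adjusted p = 7.39e-05) and from R15 to R60 (-0.89, adjusted p = 0.000106). Between them, the difference of 0.32 from HL60 to R15 did not pass (adjusted p = 0.0924) unless HL60 replicate 1, the highest of that condition, was left out (0.53, adjusted p = 0.000296).

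GAI, the closest relative of RGA, was the one of the 3 DELLA genes that was called at HL15. Its values were 697, 782 and 766 normalized counts in GL, 438, 381 and 430 at HL15, 534, 425 and 436 at HL60, 465, 585 and 713 at R15, and 621, 559 and 504 in R60. The mean was 1.80-fold lower at HL15 and 1.61-fold lower at HL60 than in GL, with no overlap (-0.85 and -0.69, adjusted p = 0.000723 and 0.00138). At R15 and R60 the fall was smaller and near the threshold (-0.37 and -0.42, adjusted p = 0.0459 and 0.0271). Of the 6 libraries compared at R15, leaving out any but R15 replicate 3 ended the call (-0.42 to -0.21, adjusted p = 0.0561 to 0.224), as did leaving out GL replicate 2, GL replicate 3, R60 replicate 2 or R60 replicate 3 at R60 (-0.42 to -0.34, adjusted p = 0.0622 to 0.106). The call at R15 was also lost with a replicate block (adjusted p = 0.0653), with no variance trend (adjusted p = 0.0684) and with only R15 and GL in the fit (adjusted p = 0.0728). HL60, R15 and R60 overlapped one another for GAI. Its difference between R15 and HL60 (0.32, adjusted p = 0.119) passed without HL60 replicate 1 or R15 replicate 1 (0.43 and 0.48, adjusted p = 0.0469 and 0.0194).

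RGL3, a DELLA gene known for linking gibberellin to jasmonate and defence, was higher than in GL at R15 and R60. RGA was lower than in GL at these times, and GAI was lower near the threshold. RGL3 did not pass at HL15, where GAI was already lower. RGL3 was at 32.2, 15.0 and 47.1 normalized counts in GL, 31.3, 99.0 and 110 at HL15, 25.7, 450 and 572 at HL60, 603, 894 and 712 at R15, and 283, 240 and 468 in R60. The R15 and R60 libraries were all above those of GL, with means 23.4-fold and 10.5-fold higher (4.63 and 3.43, standard error 0.87 for both, adjusted p = 0.000549 and 0.00512). HL15 overlapped GL (1.27, adjusted p = 0.315). At HL60 RGL3 was uneven, as HL60 replicate 1 was within the GL range while the other HL60 replicates were above all GL and HL15 libraries. The log2 fold change at HL60 was 2.69 (adjusted p = 0.0240) and 4.11 without that library (adjusted p = 1.08e-05). It did not pass without GL replicate 1, GL replicate 2, HL60 replicate 2 or HL60 replicate 3 (1.90 to 2.78, adjusted p = 0.0510 to 0.115), nor with only HL60 and GL in the fit (adjusted p = 0.132). From HL15 to HL60 the difference of 1.42 (adjusted p = 0.224) passed without HL60 replicate 1 (2.84, adjusted p = 0.000363). From HL60 to R15 the difference of 1.93 did not pass (adjusted p = 0.130) and was 0.52 without HL60 replicate 1 and 2.73 without HL60 replicate 3 (adjusted p = 0.507 and 0.0384).

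Since HL60 replicate 1 differed most from its replicates over all genes, the HL60 calls were also read without it. It held the lowest HL60 value of RGL3 and GA2OX2 and the highest of GA3OX1, RGA, GAI and GID1A. Without it, the fall of RGA at HL60 was -1.09 (adjusted p = 1.28e-07), that of GA3OX1 -4.30 (adjusted p = 2.54e-05) and the rise of GA2OX2 2.81 (adjusted p = 0.000204), so these calls did not rest on it. Why that library differed was not tested.

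The DELLA family has 2 more genes in Arabidopsis, RGL1 and RGL2, and they were added to follow the make-up of its transcripts. Per kb of transcript the sum of the 5 genes was 1440 to 1541 normalized counts in GL, 1392 to 1492 at HL15, 1237 to 1406 at HL60, 1600 to 1769 at R15 and 805 to 908 in R60. The total at R15 was thus above that in GL, and at R60 below it, in every library. RGA held 60.8 ± 1.8% of the sum in GL, 66.4 ± 1.2% at HL15, 38.3 ± 12.5% at HL60, 36.1 ± 4.4% at R15, and 38.4 ± 1.6% in R60. The share of RGL3 was 0.939 ± 0.486% in GL, 2.42 ± 1.24% at HL15, 11.4 ± 9.4% at HL60, 19.0 ± 3.1% at R15, and 16.9 ± 5.9% in R60 (SD, n = 3 each). RGL1 was 2.55-fold higher at HL60 than in GL (1.19, adjusted p = 0.0134), a call lost without HL60 replicate 2 or HL60 replicate 3 (0.86 and 1.02, adjusted p = 0.0748 and 0.0559) and with only HL60 and GL in the fit (adjusted p = 0.0725). It was 6.58-fold higher at R15 than in GL (2.71, adjusted p = 1.84e-05), and at R60 its difference of 0.61 did not pass (adjusted p = 0.170) except with only R60 and GL in the fit (adjusted p = 0.0352). RGL2, known mainly as a repressor of seed germination, was 3.53-fold lower at R15 and 4.54-fold lower at R60 than in GL (-1.81 and -2.24, adjusted p = 7.03e-06 and 1.02e-06).

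**Figure D3:**
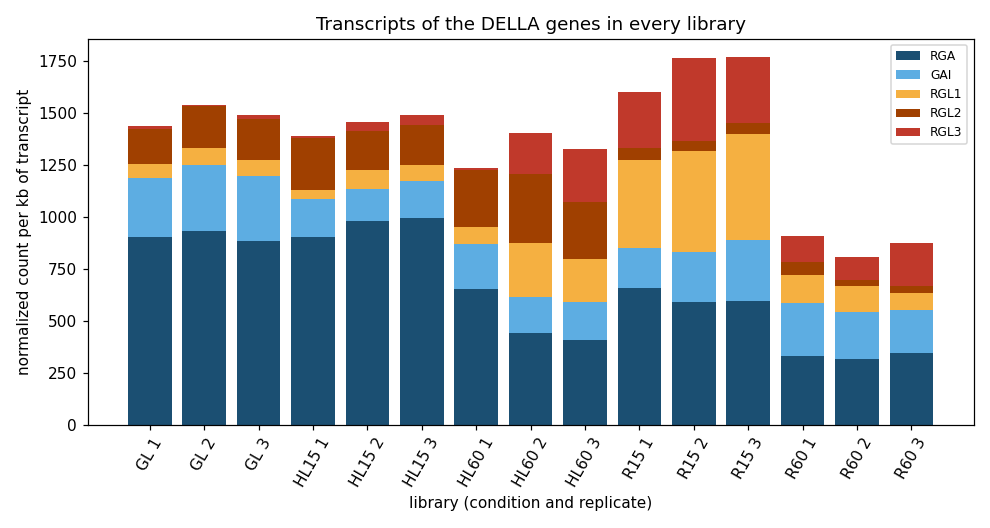
Normalized counts per kb of transcript of the 5 DELLA genes, stacked, in every library (horizontal axis, condition and replicate). The sum is 1440 to 1541 in GL, 1600 to 1769 in R15 and 805 to 908 in R60, and the share of RGL3 is 0.939% in GL and 19.0% in R15 on average.

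Levels of the 9 genes relative to one another also changed. Per kb of transcript, the mean levels in GL ran from 907 for RGA and 307 for GAI through 53.5 for GA20OX1, 42.6 for GA3OX1, 40.3 for GID1A and 13.9 for RGL3 to 5.66 for GA2OX2, 3.66 for GA2OX6 and 0 for GA2OX8. At R15, RGL3 with 326 normalized counts per kb was above GAI with 241, and GA2OX2 with 111 was beside GA3OX1 with 106. At R60, GID1A with 274 was above GAI with 231. RGA was the highest of the 9 in all 5 conditions.

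The comparisons between neighbouring conditions showed where the changes took place. From HL15 to HL60, 4 of the 9 genes rose and 1 fell (GA20OX1, GA2OX2, GA2OX8 and GID1A up, RGA down), against 18.3% and 17.4% of all genes tested. From HL60 to R15, 3 rose (GA3OX1, GA2OX2 and GID1A) and 0 fell, against 11.6% and 11.7% of all genes. The number called in either direction was 5 without HL60 replicate 1 and 5 without R15 replicate 1. At an unadjusted p under 0.05, GA20OX1 was also lower, and RGA, GAI and RGL3 higher, at R15 than at HL60. From R15 to R60, 2 rose (GA20OX1 and GID1A) and 2 fell (GA2OX2 and RGA), against 20.8% and 20.2% of all genes. GA3OX1 and RGL3 had lower means at R60 than at R15 with no overlap of libraries, and these differences of -1.29 and -1.19 did not pass (adjusted p = 0.111 and 0.298), but did with only R15 and R60 in the fit (adjusted p = 0.0266 and 0.0119). The difference of GA3OX1 also passed with a pseudocount of 5 (-1.24, adjusted p = 0.0368).

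A list of 41 further gibberellin genes was drawn up from textbook knowledge, with earlier results of these data known. It covered the early enzymes, the remaining oxidases, receptors and DELLA genes, DELLA partners and growth genes known to respond to gibberellin. Of the 41 genes, 31 are in the table and 30 were tested. At HL15, 0 were higher and 10 lower than in GL, at HL60 4 were higher and 8 lower, at R15 5 were higher and 13 lower, and at R60 8 were higher and 8 lower. Of all genes tested, 11.4%, 19.4%, 22.9% and 21.4% were higher at HL15, HL60, R15 and R60, and 13.2%, 19.4%, 22.9% and 22.1% were lower. With a change of 2-fold or more as well, 8, 8, 13 and 11 of the 30 were called. The shares of all genes were then 9.45%, 15.6%, 19.8% and 19.3%. Median log2 fold changes of the 30 were -0.28, -0.11, -0.36 and -0.012 at HL15, HL60, R15 and R60, and -0.23, -0.04, -0.48 and -0.01 with genes under the floor at their bound or left out.

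Growth genes with the widest changes fell at all times. EXPA8 and EXPA1 encode expansins, which loosen cell walls, and GASA6 belongs to a family of small peptides induced by gibberellin. GASA6 was 4.89-fold lower at HL15 than in GL, 44.1-fold at HL60, 67.8-fold at R15 and 169-fold in R60 (-2.40, -5.56, -6.05 and -7.33, adjusted p = 0.00113, 1.86e-07, 7.31e-08 and 1.33e-08). EXPA8 ran close to it, with -2.36, -5.67, -6.75 and -7.40, and EXPA1 had -2.58, -1.60, -2.14 and -2.60 at these times. PRE1, a helix-loop-helix protein that promotes elongation, was lowest at R15, at 45.6 normalized counts against 668 in GL (-4.03, adjusted p = 6.15e-07), and PRE5, a relative of it, fell at R15 and was at least 5.14-fold lower at R60 (adjusted p = 0.00216 and 0.000547). GASA4, GASA9 and GASA14 were lower at HL15 (-1.28, -1.63 and -1.70, adjusted p = 0.00497, 0.000717 and 0.000813), and GASA14 was higher than in GL at R60 (1.18, adjusted p = 0.00395). GASA9 was also lower at HL60 and R15 (-0.90 and -0.78, adjusted p = 0.0168 and 0.0292), calls lost without GL replicate 2 (-0.77 and -0.65), HL60 replicate 1 (-0.68 at HL60), or GL replicate 1, R15 replicate 1 or R15 replicate 3 (-0.81 to -0.63 at R15).

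Among early enzymes and DELLA partners the directions were mixed. KS and KO encode the synthase and the oxidase of ent-kaurene. KO was lower at HL60, R15 and R60 (-0.90, -1.41 and -1.14, adjusted p = 5.92e-05, 6.86e-07 and 5.18e-06), and KS was lower at HL60 and R15 (-1.23 and -0.72) but higher at R60 (0.49, adjusted p = 0.0231), a call lost without GL replicate 1, GL replicate 2 or R60 replicate 3 (0.39 to 0.47). GA2OX1, a further 2-oxidase, was higher at HL60 and R15 (1.45 and 1.38, adjusted p = 0.0154 and 0.0170). Without GL replicate 1, HL60 replicate 1 or R15 replicate 1 these calls were lost (1.06 to 1.37, adjusted p = 0.0516 to 0.0690). At R60 its difference of -0.63 did not pass (adjusted p = 0.264). Per kb of transcript, GA2OX1 held 86.6 ± 4.0% of the sum of GA2OX1, GA2OX2, GA2OX6 and GA2OX8 in GL (SD, n = 3). That sum was 64.4 to 75.0 normalized counts in GL, 167 to 329 at HL60, 299 to 346 at R15 and 58.05 to 269 in R60. At R60 it thus overlapped GL. GAF1, a zinc finger partner of DELLA proteins, was higher than in GL at R15 and R60. Its means were 2.09-fold and 7.93-fold that of GL (1.04 and 2.97, adjusted p = 0.000376 and 2.75e-08). At HL15 it was lower (-0.61, adjusted p = 0.0271). That call was lost with only HL15 and GL in the fit (adjusted p = 0.0593). It was also lost without GL replicate 1, GL replicate 2, HL15 replicate 1 or HL15 replicate 2 (-0.60 to -0.52, adjusted p = 0.0758 to 0.108). XERICO and bHLH137, both known as early targets of DELLA, differed from each other: XERICO was lower at HL15 and R15 and higher at R60 (-1.505, -2.12 and 1.37), and bHLH137 was higher at R15 and R60 (2.06 and 0.92, with the call at R60 lost without R60 replicate 2, at 0.77).

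**Figure D4:**
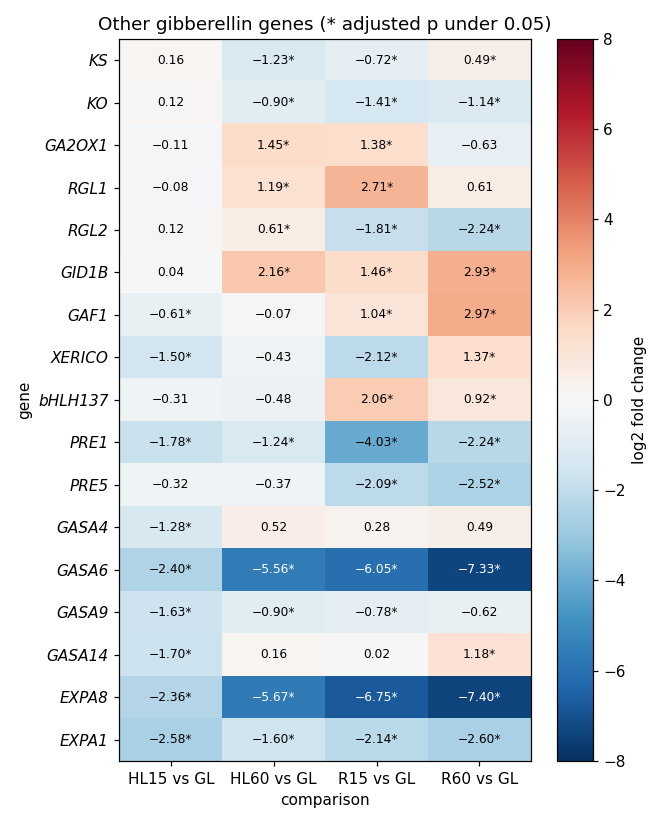
Log2 fold change against GL (colour and printed value) of the 17 further gibberellin genes that changed by 2-fold or more with an adjusted p under 0.05 in at least 1 treatment, by comparison along the horizontal axis; an asterisk marks an adjusted p under 0.05. GASA6 and EXPA8 fall to -7.33 and -7.40 at R60, and GAF1 reaches 2.97.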

How the data were processed

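Leaf RNA of 15 libraries, 3 per condition, was analysed. The table holds a signal value per gene and library, deposited by the authors as normalized counts. Reads were quantified by the authors with Salmon 0.12 against TAIR cDNA (build TAIR10), and genes under 10 reads were left out before their test with DESeq2. The values were not whole reads: they appear as estimated counts scaled by library and, where a gene has more than 1 transcript, also by length. No count test was therefore run. Strand use in counting is not given in the sources used here.

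Genes summing to under 10 over all libraries were not tested. Values plus 1 were put on a log2 scale and tested with limma 3.58.1 (R 4.3.3) in a joint model of the 5 conditions, with a trend in the variance and without a block, for 7 comparisons. Benjamini-Hochberg adjustment covered all 20512 genes tested. A fold against libraries all at or under 3 normalized counts per library is a bound. Levels per kb use transcript lengths from RefSeq. Coordinates, transcripts and promoters are those of RefSeq TAIR10.1, joined by locus tag. The procedure was tested on simulated data.

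The genes and the list of further gibberellin genes were chosen with earlier results of these data known. All 10 genes were to be named, and of the further list those that passed with at least a 2-fold change against GL in any condition. GID1C was named outside this rule to complete its family, and SCL3 because it shared the pattern of the flagged genes. For likeness of pattern, the 3 genes with the highest Pearson correlation over the 15 libraries were taken, among genes with a mean of 100 or more, for each of the 10 genes with a mean of 20 or more that passed with at least a 2-fold change against GL, which left out GAI and GA2OX8. Alternatives were pseudocounts of 0.5 and 5, no filter or a mean of 10 or more, upper quartile normalization, a replicate block, no variance trend, fits of only the conditions compared, and leaving out each library in turn. Bounds with 1 library left out were added after seeing the data.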

Additional observations from a re-analysis of the deposited data

Results flagged for a closer look

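In 5 genes all libraries of neighbouring conditions lay on opposite sides of the GL libraries, and the difference between these conditions passed. GA3OX1 was lower than GL at HL60 (-3.61, adjusted p = 0.000349 from limma) and higher at R15 (1.28, adjusted p = 0.108), a difference of 4.89 (adjusted p = 5.60e-05). RGL2 was higher at HL60 and lower at R15 (0.61 and -1.81), a difference of -2.42 (adjusted p = 2.19e-06). The call of RGL2 at HL60 (adjusted p = 0.0311) did not pass without GL replicate 1, GL replicate 2, GL replicate 3 or HL60 replicate 2 (0.52 to 0.66, adjusted p = 0.0508 to 0.111). KS, GID1C and XERICO were lower at R15 and higher at R60, with differences of 1.22, 1.67 and 3.49 between R60 and R15 (adjusted p = 4.42e-05, 1.48e-05 and 1.23e-06). The rise of KS at R60 (0.49) did not pass without GL replicate 1, GL replicate 2 or R60 replicate 3 (0.39 to 0.47, adjusted p = 0.0662 to 0.103).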

How the results depend on the processing

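Libraries with the same replicate number showed no clear shared deviation. Same-numbered libraries of different conditions had correlations of -0.083 to 0.137 between their deviations from the condition means, and differently numbered ones -0.173 to 0.126. Whether the replicates were handled as sets cannot be told from these correlations. With a replicate block, GAI at R15 was no longer called (-0.37, adjusted p = 0.0653), and no other call of the 9 genes changed. No called value changed its direction under any alternative. Directions that changed were those of values that had not passed: with upper quartile normalization GA20OX1 at R60 (-0.0154), GAI from R15 to R60 (0.0348), GID1B and GID1C at HL15 (-0.0095 and -0.0362) and GASA14 at R15 (-0.077). With 1 library left out, values that had not passed spanned 0 as follows: at HL15 GA2OX2 -0.23 to 0.28, RGL1 -0.25 to 0.20, GID1B -0.18 to 0.38 and GID1C -0.075 to 0.13, at HL60 GAF1 -0.21 to 0.018 and GASA14 -0.22 to 0.38, at R15 GASA14 -0.16 to 0.12, at R60 GA20OX1 -0.21 to 0.29 and GA3OX1 -0.35 to 0.26, from HL15 to HL60 GA2OX6 -0.096 to 1.01, from HL60 to R15 GA2OX8 -0.28 to 0.64, and from R15 to R60 GA2OX6 -1.13 to 1.03, GA2OX8 -0.99 to 0.73 and GAI -0.21 to 0.10. The number of the 9 genes called was, over the libraries left out in turn, 3 to 4 at HL15, 6 to 7 at HL60, 7 to 8 at R15 and 5 to 7 at R60 against GL, 4 to 7 from HL15 to HL60, 2 to 5 from HL60 to R15 and 3 to 4 from R15 to R60. Low counts limit GA2OX6 and GA2OX8. They also limit the folds of GA20OX1 at HL15 (3.74 to 10.4 normalized counts) and of GA3OX1 at HL15 (4.71 to 23.9) and HL60 (1.06 to 12.9).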

Other observations

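The genes whose levels followed those of the gibberellin genes most closely over the 15 libraries are given as a description, since the libraries share their conditions. RGL3 was closest to AT1G53885 and AT1G53903, which share all their 31-base stretches and cannot be told apart (r = 0.986), and to IRX15-L (r = 0.982), a gene of xylan synthesis. GID1A was closest to AT1G51610, AT2G47390 and TSB1, a tryptophan synthase gene (r = 0.985, 0.982 and 0.977). RGA was followed by MPK15, ATSPS4F, a sucrose phosphate synthase gene, and TPC1, a vacuolar cation channel gene (r = 0.975, 0.973 and 0.971). GA2OX2 ran with SIP2, MTO2, which encodes threonine synthase, and AT3G05220 (r = 0.967, 0.964 and 0.957), and GA2OX6 with ERD7, AT5G42570 and the dehydrin gene COR47 (r = 0.901, 0.886 and 0.866). For GA3OX1 the closest were KICP-02, AT5G07580 and FLA17 (r = 0.927, 0.920 and 0.918). For GA20OX1 they were BRG2, the cell cycle inhibitor gene LGO and AT3G10527, which overlaps LGO on the other strand (r = 0.891, 0.890 and 0.855). Of the 31-base stretches of AT3G10527, 90.1% occur in another gene, mostly LGO, so its level can hardly be told apart from that of LGO.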
